A study of Bos taurus with 18 samples.

Results

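The immediate early response genes described here are 10 genes: the AP-1 subunit genes FOS, FOSB, FOSL1, JUN and JUNB, the bZIP factor gene ATF3, the zinc finger factor gene EGR1, the orphan nuclear receptor gene NR4A1, IER2 and the phosphatase gene DUSP1. They were chosen by name from a table of 24596 genes, each name stood on 1 row, and all 10 passed the filter on low counts. RNA was sequenced from 18 libraries of cattle cells labelled as fibroblasts, 9 Simmental-like and 9 Holstein-like, sampled in the course of extended culture. Each line had 3 libraries at each of 3 stages. The cell line labels were PBF-13 for primary, Sn-BF-13 for senescent and HUN-BF-13 for immortalized Simmental-like cells, and PBF-15, Sn-BF-15 and HUN-BF-15 for the Holstein-like stages. Immortalization is described as spontaneous, and the labels name no transgene or agent. The Simmental-like columns carry a different culture name at each stage, with MultiXray-Ctrl in that of the senescent cells, so stage and named culture cannot be told apart. The primary and senescent names share BDF-20, whereas the immortalized one is BF-13. Of these, only BF-13 matches the cell line labels. Holstein-like primary columns are named BEF and the later ones BF-15. Whether the stages came from 1 animal is not given in the sources used here.

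Immediate early genes are transcribed within minutes of a growth factor, serum or stress signal, with no need for new protein. The signal runs through RAS and the ERK kinase cascade, or through the stress kinases JNK and p38, to factors such as SRF, the ELK proteins and CREB that already sit at these genes. Most of the products are transcription factors: FOS and JUN proteins pair to form AP-1, while DUSP1 dephosphorylates the MAP kinases and so closes the loop. In fibroblasts the transcripts are short-lived, and the response to serum is the textbook case.

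Depth was 18.2 to 23.2 M counts (M for 1e+06) in Simmental-like libraries and 1.42 to 14.1 M in Holstein-like ones. Genes of cultured fibroblasts such as COL1A1, FN1 and VIM (7 genes) took 4.41% to 6.76% of the counts in every Simmental-like library, where endothelial markers (5 genes) took at most 0.00108% and blood and immune markers (6 genes) at most 0.000405%. Simmental-like senescent libraries 1 and 2 were almost the same library (chi-square of 1.34 a gene, where counting noise alone gives about 1), so the spread between senescent libraries may be technical. Replicates are labelled biological, but no label ties each to a culture of its own, so p-values may rest on technical spread. Levels are counts per 1e+06 counts of the library (CPM). Changes are log2 values ± SE from edgeR after TMM scaling, which sets the median change of all genes near 0. By column totals the median change of all genes was 0.47 in senescent against primary, -0.16 in immortalized against senescent and 0.30 in immortalized against primary libraries.

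Within the FOS family the subunit genes went different ways through the stages. FOS stood at 137, 87.3 and 89.9 CPM in primary, 41.6, 41.4 and 44 CPM in senescent and 33.2, 36.7 and 36.4 CPM in immortalized Simmental-like libraries. Every primary library lay above every later one. FOS fell in senescent against primary libraries (-1.82 ± 0.245, edgeR adjusted p = 0.000432) and was lower in immortalized against primary ones (-1.91 ± 0.246, adjusted p = 0.000304), whereas immortalized and senescent libraries differed by -0.09 ± 0.239 and did not pass (edgeR adjusted p = 0.792). As in all bulk samples, fewer cells with a transcript and less RNA per cell cannot be told apart.

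FOSL1, whose product FRA-1 is the FOS-family subunit typical of proliferating and migrating cells, had its peak in the senescent libraries. It stood at 27.2, 62.2 and 51 CPM in primary, 150, 153 and 147 CPM in senescent and 73.1, 65.7 and 61.5 CPM in immortalized libraries. The senescent libraries overlapped neither of the other stages. FOSL1 rose in senescent against primary libraries (1.25 ± 0.197, edgeR adjusted p = 0.00101) and fell in immortalized against senescent ones (-1.01 ± 0.196, adjusted p = 0.00495). Between immortalized and primary libraries the change of 0.24 ± 0.195 did not pass (edgeR adjusted p = 0.328).

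FOSB, a close relative of FOS best known from neurons, had the fewest counts of the 10 genes in this line. It stood at 11.5, 5.3 and 4.08 CPM in primary, 9.97, 9.89 and 10.5 CPM in senescent and 2.25, 2.44 and 3.44 CPM in immortalized libraries. The immortalized libraries lay below all others, while primary library 1 lay above the senescent ones and primary libraries 2 and 3 below them. The change in senescent against primary libraries was 0 ± 0.413 (edgeR adjusted p = 0.994), and 0.72 without primary library 1 (adjusted p = 0.00534). FOSB fell in immortalized against senescent (-1.73 ± 0.44, edgeR adjusted p = 0.0169) and against primary libraries (-1.73 ± 0.443, adjusted p = 0.0117). The first of these did not pass without immortalized library 1 (adjusted p = 0.0626) or 2 (adjusted p = 0.0665).

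JUN and JUNB, the genes of partners for the FOS proteins, moved in opposite directions between primary and immortalized libraries. JUN, the more strongly activating partner, stood at 108, 113 and 121 CPM in primary, 327, 328 and 340 CPM in senescent and 282, 310 and 333 CPM in immortalized libraries. It rose in senescent (1.06 ± 0.103, edgeR adjusted p = 6.63e-05) and immortalized (1.12 ± 0.103, adjusted p = 4.02e-05) against primary libraries, with no overlap in either case. Immortalized and senescent libraries overlapped (0.06 ± 0.102, edgeR adjusted p = 0.706).

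JUNB, which can dampen JUN activity and proliferation, stood at 365, 211 and 283 CPM in primary, 237, 237 and 251 CPM in senescent and 69.6, 80.1 and 93.6 CPM in immortalized libraries. The immortalized libraries lay below all others. JUNB fell in immortalized against senescent (-1.41 ± 0.257, edgeR adjusted p = 0.00356) and against primary libraries (-2.17 ± 0.263, adjusted p = 0.000217). In senescent against primary libraries it passed with -0.76 ± 0.253 (edgeR adjusted p = 0.0312), although the CPM values overlapped. That call was lost under total-count scaling (-0.24, adjusted p = 0.299) and on leaving out primary library 3 (adjusted p = 0.0542) or any 1 of the senescent libraries (adjusted p from 0.0696 to 0.0837).

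ATF3, a stress-induced bZIP factor that pairs with JUN proteins and can repress its targets, stood at 12.4, 13 and 14.6 CPM in primary, 62.9, 62.3 and 68.8 CPM in senescent and 41.2, 45.1 and 45.6 CPM in immortalized libraries. No pair of stages overlapped. It rose in senescent (1.80 ± 0.112, edgeR adjusted p = 5.84e-06) and in immortalized (1.41 ± 0.112, adjusted p = 1.59e-05) against primary libraries. The smaller fall in immortalized against senescent libraries (-0.39 ± 0.108, edgeR adjusted p = 0.0225) no longer passed on leaving out any 1 of those 6 libraries, with adjusted p from 0.0554 to 0.0962.

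**Figure D1:**
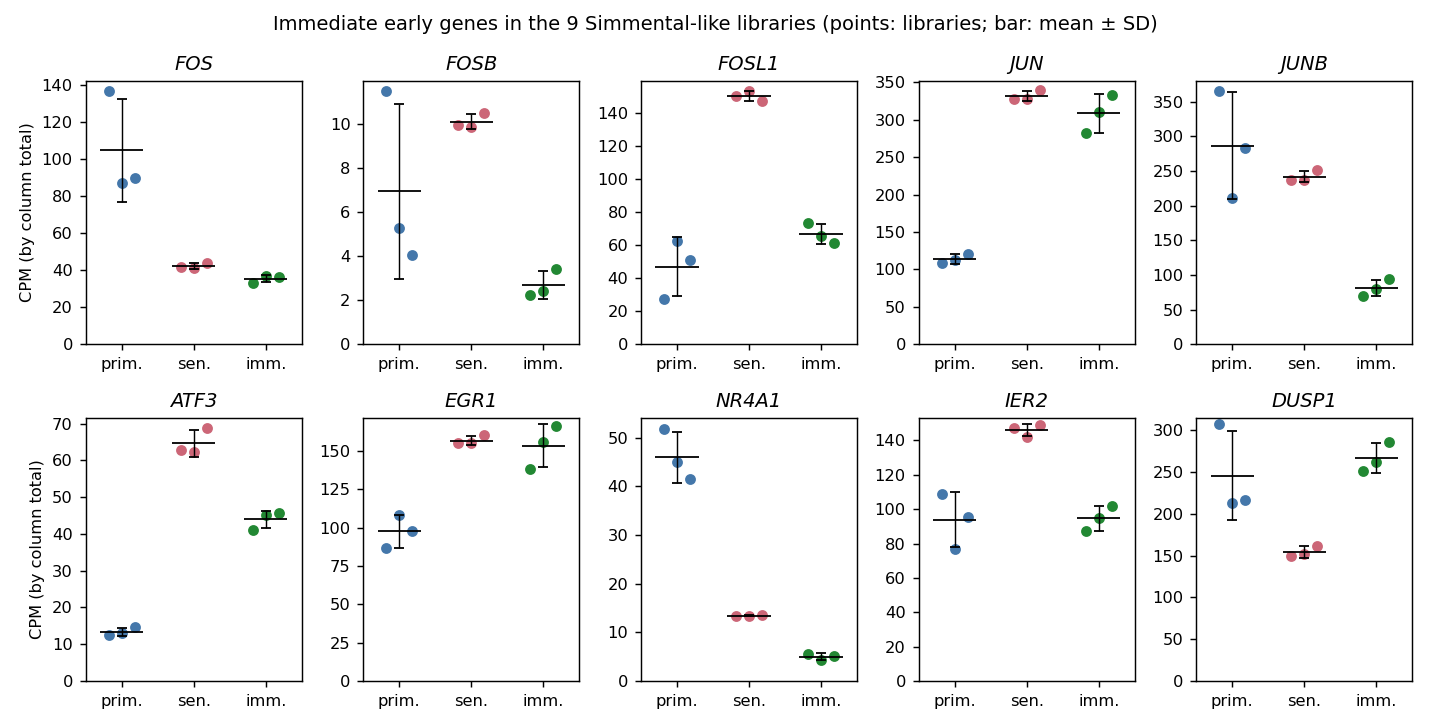
Level of each of the 10 genes in CPM by column total (y axis, linear, from 0) in the 9 Simmental-like libraries at the primary, senescent and immortalized stage (x axis). Points are libraries, bars are the mean ± SD of 3; FOS and NR4A1 are highest in primary, FOSL1 and ATF3 in senescent libraries, and JUNB and FOSB lowest in immortalized ones.

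NR4A1, an orphan nuclear receptor whose transcript is induced like that of FOS, had the largest change of the 10 genes between immortalized and primary libraries. It stood at 51.7, 44.9 and 41.4 CPM in primary, 13.4, 13.4 and 13.5 CPM in senescent and 5.49, 4.24 and 5.21 CPM in immortalized libraries. It fell at each step with no overlap: -2.27 ± 0.183 in senescent against primary (edgeR adjusted p = 2.65e-05) and -1.27 ± 0.186 in immortalized against senescent libraries (adjusted p = 0.00117). Between the ends of the series it was 11.6-fold lower in immortalized than in primary libraries (-3.54 ± 0.196, edgeR adjusted p = 2.28e-06).

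EGR1, a zinc finger factor that joins ERK signalling to growth and matrix genes, moved little. It stood at 86.7, 108 and 97.6 CPM in primary, 155, 155 and 160 CPM in senescent and 138, 156 and 166 CPM in immortalized libraries. By CPM both later stages lay above primary without overlap. After TMM scaling the change was 0.22 ± 0.0931 in senescent against primary libraries and did not pass (edgeR adjusted p = 0.0719). Under total-count scaling it was 0.69 (adjusted p = 0.00108), and it passed without primary library 1 (adjusted p = 0.0384). In immortalized against primary libraries EGR1 rose by 0.35 ± 0.0932 (edgeR adjusted p = 0.0131), a call lost without immortalized library 3 (adjusted p = 0.0623), and immortalized and senescent libraries did not differ past the threshold (0.13 ± 0.093, adjusted p = 0.311).

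IER2, a small nuclear protein gene of the serum response, stood at 109, 76.9 and 95.7 CPM in primary, 147, 142 and 149 CPM in senescent and 87.1, 94.7 and 102 CPM in immortalized libraries. The senescent libraries were the highest by CPM. After TMM scaling no comparison passed: 0.14 ± 0.189 in senescent against primary (edgeR adjusted p = 0.553), -0.47 ± 0.189 in immortalized against senescent (adjusted p = 0.095) and -0.33 ± 0.19 in immortalized against primary libraries (adjusted p = 0.177). IER2 passed under total-count scaling as 0.64 higher in senescent against primary libraries (edgeR adjusted p = 0.00411) and as -0.63 in immortalized against senescent ones (adjusted p = 0.00809). Without primary library 1 the same 2 comparisons passed too (edgeR adjusted p = 0.0142 and 0.00281), and without primary library 2 immortalized against senescent (adjusted p = 0.0198) and immortalized against primary (-0.51, adjusted p = 0.0135) did.

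DUSP1, the phosphatase that switches MAP kinases off again, dipped at the senescent stage. It stood at 307, 213 and 217 CPM in primary, 149, 152 and 162 CPM in senescent and 251, 262 and 286 CPM in immortalized libraries. The senescent libraries lay below all others. DUSP1 fell in senescent against primary libraries (-1.18 ± 0.213, edgeR adjusted p = 0.00201) and rose in immortalized against senescent ones (0.95 ± 0.212, adjusted p = 0.00963). Immortalized and primary libraries overlapped (-0.23 ± 0.21, edgeR adjusted p = 0.386).

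Counted together, the 10 genes did not move as 1 block. In senescent against primary libraries 3 rose (JUN, ATF3, FOSL1), 4 fell (NR4A1, FOS, JUNB, DUSP1) and 3 did not pass, beside 58% of all 13099 tested genes called, 28.3% higher and 29.7% lower. In immortalized against senescent libraries 1 rose (DUSP1), 5 fell (NR4A1, FOSB, JUNB, ATF3, FOSL1) and 4 did not pass, where 32.4% of all genes were called, 16.4% higher and 16.1% lower. In immortalized against primary libraries 3 rose (JUN, EGR1, ATF3), 4 fell (NR4A1, FOS, FOSB, JUNB) and 3 did not pass, beside 50.4% of all genes, 24.9% higher and 25.5% lower. By CPM, 8 of the 10 did not overlap between senescent and primary libraries, 5 of them higher in senescent ones, where 69.2% of all genes did not overlap and 53.7% lay higher. Between immortalized and senescent libraries 8 did not overlap, 7 of them lower in immortalized ones, beside 71.5% of all genes and 46.1% lower. Between immortalized and primary libraries 7 did not overlap, 3 higher and 4 lower, beside 58.4% of all genes, 41.3% higher and 17.1% lower. The median change of the 10 genes was 0.07, -0.43 and -0.28 in these comparisons, in the order given, against 0.01, 0 and 0 over all tested genes. Under total-count scaling it was 0.59, -0.59 and 0.06, so that the last turned sign. Their summed level was 934 to 1220 CPM in primary, 1290 to 1350 CPM in senescent and 983 to 1130 CPM in immortalized libraries.

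**Figure D2:**
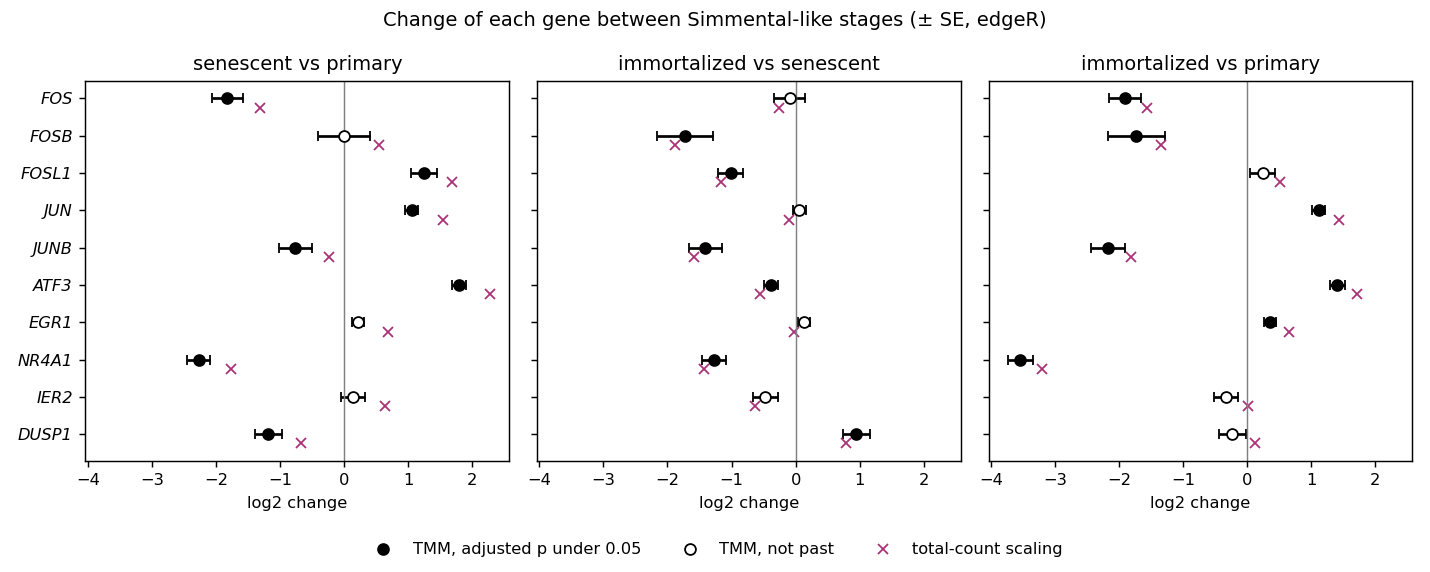
Change of each gene (rows) between the Simmental-like stages on the log2 scale (x axis), 1 panel a comparison. Circles are edgeR values after TMM scaling ± SE, filled where the adjusted p was under 0.05, and crosses are the values under total-count scaling, which lie to the right in both comparisons with primary libraries; NR4A1 is the farthest from 0 in immortalized against primary libraries at -3.54.

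Primary library 1 stood apart from the other primary libraries. Its chi-square a gene was 353 against primary library 2 and 181 against primary library 3, while these differed from each other by 39.8. Primary library 1 is described here by its levels of the 10 genes. It held the highest primary level of 6 of the 10 genes (NR4A1, FOS, FOSB, JUNB, IER2, DUSP1) and the lowest of the other 4 (JUN, EGR1, ATF3, FOSL1), and its TMM factor was 0.725 against 0.915 and 0.873 in the other primary libraries. Such an order was not particular to primary library 1. Senescent library 3 was the highest of its stage for 9 genes and the lowest for 1, and immortalized library 1 the lowest for 8 and the highest for 2. The coefficient of variation in primary libraries ran from 6.02% for JUN to 56.9% for FOSB, while in senescent libraries no gene exceeded 5.59%. Without primary library 1 all 10 genes passed in senescent against primary libraries, 6 higher and 4 lower, while calls over all genes also grew, to 8990 against 7591 with every library.

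Ratios of 2 genes within a library do not depend on how libraries are scaled, and a change of a ratio between stages does not depend on gene length. The pairs were chosen after their values were seen and are given with no test. The FOSL1 to FOS ratio of counts was 0.198, 0.712 and 0.567 in primary, 3.6, 3.7 and 3.35 in senescent and 2.21, 1.79 and 1.69 in immortalized libraries. The JUN to JUNB ratio was 0.296, 0.536 and 0.429 in primary, 1.38, 1.38 and 1.36 in senescent and 4.05, 3.87 and 3.56 in immortalized libraries. Neither ratio overlapped between any pair of stages. The EGR1 to FOS ratio ran from 0.632 to 1.23 in primary, from 3.64 to 3.74 in senescent and from 4.17 to 4.57 in immortalized libraries, and that of ATF3 to NR4A1 from 0.239 to 0.353, from 4.64 to 5.08 and from 7.51 to 10.6 in the same order of stages.

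**Figure D3:**
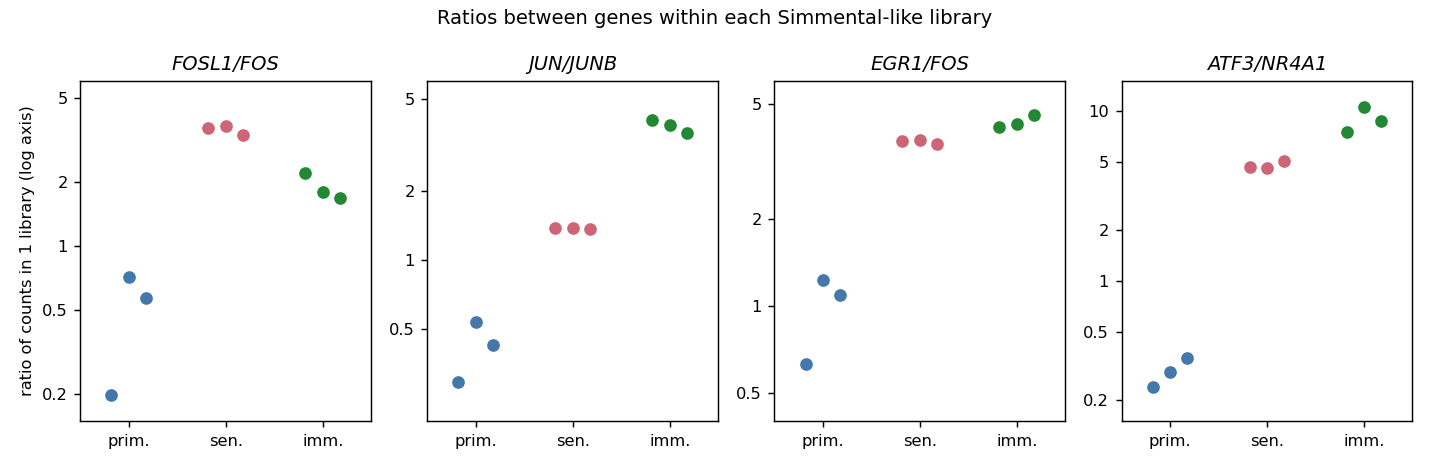
Ratio of the counts of 2 genes within each Simmental-like library (y axis, log scale) by stage (x axis); each point is a library. FOSL1/FOS is highest in senescent libraries at 3.35 to 3.7, and JUN/JUNB in immortalized ones at 3.56 to 4.05.

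The counts of the lists that follow stand beside the shares of all genes called: 28.3% higher and 29.7% lower in senescent against primary, 16.4% and 16.1% in immortalized against senescent, and 24.9% and 25.5% in immortalized against primary libraries. Of 25 other immediate early genes tested, 11 rose and 5 fell in senescent against primary libraries (median 0.40), 3 rose and 12 fell in immortalized against senescent ones (median -0.55), and 6 rose and 10 fell in immortalized against primary ones (median -0.08, and 0.20 under total-count scaling). The NR4A1 relatives NR4A2 and NR4A3 were lowest in immortalized libraries. NR4A2 averaged 4.54 CPM there against 27.4 CPM in senescent libraries (-2.43 ± 0.16, edgeR adjusted p = 1.9e-05), and NR4A3 0.954 CPM against 10.9 CPM (-3.35 ± 0.478, adjusted p = 0.00103). NR4A3 was also lower in immortalized libraries than in the primary ones, which stood at 2.27, 11.7 and 7.94 CPM (-3.18 ± 0.48, edgeR adjusted p = 0.000749).

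The EGR1 relatives EGR2 and EGR3 were scarce at all stages. EGR2 averaged 2.13 CPM in senescent and 0.224 CPM in primary libraries (2.75 ± 0.279, edgeR adjusted p = 8.29e-05), and 0.326 CPM in immortalized ones, a fall against senescent libraries (-2.52 ± 0.263, adjusted p = 0.00019). EGR3 averaged 0.154 CPM in immortalized against 1.86 CPM in senescent libraries (-3.37 ± 0.564, edgeR adjusted p = 0.00236), and was also below primary libraries, which stood at 0.247, 1.34 and 0.707 CPM (-2.55 ± 0.615, adjusted p = 0.00871). ARC, an immediate early gene known from synapses, averaged 7.89 CPM in senescent and 0.0815 CPM in primary libraries (6.06 ± 0.342, edgeR adjusted p = 3.37e-06, with 1, 2 and 2 counts in the primary libraries) and stayed higher in immortalized than in primary ones (2.13 CPM, 4.33 ± 0.376, adjusted p = 2.91e-05). SGK1, a kinase induced by serum and glucocorticoids, rose to 97.1 CPM in senescent against 26.8 CPM in primary libraries (1.39 ± 0.0857, edgeR adjusted p = 5.5e-06). IER5L stood at 249, 82.8 and 128 CPM in primary libraries. It fell to 30.3 CPM in senescent (-2.89 ± 0.441 against primary, edgeR adjusted p = 0.00084) and was at 25.1 CPM in immortalized ones (-3 ± 0.443 against primary, adjusted p = 0.000677).

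Among 10 tested AP-1 and bZIP partners, 5 rose and 1 fell in senescent against primary libraries (median 0.76), 2 rose and 3 fell in immortalized against senescent ones (median -0.31), and 2 rose and 0 fell in immortalized against primary ones (median 0.20; 8 did not pass). MAFF, a small MAF protein without an activation domain, stood at 88.7 CPM in senescent against 21.7 CPM in primary libraries (1.56 ± 0.103, edgeR adjusted p = 8.13e-06) and at 27.2 CPM in immortalized against those 88.7 CPM in senescent ones (-1.54 ± 0.103, adjusted p = 1.98e-05). MAFG fell with it to 24.5 CPM in immortalized against 60.4 CPM in senescent libraries (-1.14 ± 0.195, edgeR adjusted p = 0.00263), and had 26.7, 24.8 and 18.2 CPM in primary ones.

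BATF3, a bZIP partner of JUN best known from dendritic cells, went up at each step. It stood at 0.247, 0.0862 and 0.109 CPM in primary, 2.66, 2.68 and 2.58 CPM in senescent and 19.7, 22.4 and 24.5 CPM in immortalized libraries. The changes were 3.66 ± 0.329 in senescent against primary (edgeR adjusted p = 4.66e-05), 3.23 ± 0.217 in immortalized against senescent (adjusted p = 2.2e-05) and 6.89 ± 0.304 in immortalized against primary libraries (adjusted p = 7.18e-07). JDP2, a repressor that competes for AP-1 sites, fell to 43.8 CPM in senescent against 82.3 CPM in primary libraries (-1.39 ± 0.124, edgeR adjusted p = 4.21e-05). Its immortalized libraries stood at 83.6, 82.3 and 90.2 CPM. CREM, a relative of CREB, rose in immortalized against primary libraries to 1.69 CPM against 0.732 CPM (0.91 ± 0.226, edgeR adjusted p = 0.0096). By CPM it was highest in senescent libraries, at 2.32, 2.53 and 1.96 CPM.

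Feedback genes of the MAP kinase pathway, with the EGR corepressors NAB1 and NAB2, were mostly higher in senescent than in primary libraries: of 16 tested, 10 rose and 3 fell (median 0.73). In immortalized against senescent libraries 2 rose and 9 fell (median -0.51), and in immortalized against primary ones 5 rose and 5 fell (median -0.21, and 0.10 under total-count scaling). DUSP6, the cytoplasmic ERK phosphatase, fell to 17.9 CPM in immortalized against 57.7 CPM in senescent libraries (-1.52 ± 0.106, edgeR adjusted p = 2.34e-05). SPRY4, an inhibitor of receptor tyrosine kinase signalling, fell to 4.15 CPM against 18 CPM (-1.96 ± 0.352, edgeR adjusted p = 0.0034), and its relative SPRED3 to 1.99 CPM against 4.58 CPM (-1.04 ± 0.256, adjusted p = 0.0148). In primary libraries DUSP6 stood at 13.9, 18.4 and 17.8 CPM, SPRY4 at 2.27, 9.01 and 5 CPM, and SPRED3 at 1.28, 3.06 and 1.9 CPM.

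Other phosphatase genes of the DUSP family went both ways. In immortalized against primary libraries DUSP10 (-1 ± 0.168, edgeR adjusted p = 0.00131) and DUSP14 (-0.48 ± 0.115, adjusted p = 0.00849, but 0.211 under total-count scaling) fell, a pair named after its values were seen. DUSP5 averaged 12.1 CPM in senescent against 2.18 CPM in primary libraries (2.01 ± 0.174, edgeR adjusted p = 3.5e-05) and 9.12 CPM in immortalized ones (1.77 ± 0.175 against primary, adjusted p = 5.85e-05). DUSP16, which acts on JNK, averaged 16.3 CPM in senescent libraries, against 1.38, 6.64 and 3.54 CPM in the primary ones (1.65 ± 0.413, edgeR adjusted p = 0.00945) and at 16.4 CPM in immortalized ones (1.83 ± 0.415 against primary, adjusted p = 0.00652). DUSP8 rose to 24.8 CPM in immortalized against 6.65 CPM in primary libraries (1.58 ± 0.13, edgeR adjusted p = 2e-05). DUSP4 had 52 counts in senescent and 2 in primary libraries (27.2 times as many per library size, with 7.16 to 231 as the 95% interval from counting), and fell in immortalized libraries to 0.137 CPM against 0.886 CPM in senescent ones (-2.46 ± 0.384, edgeR adjusted p = 0.00153). NAB2 was lower in senescent against primary libraries, with 57.3 CPM against 125 CPM (-1.60 ± 0.104, edgeR adjusted p = 7.3e-06), and in immortalized ones with 57 CPM (-1.44 ± 0.103 against primary, adjusted p = 8.86e-06).

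**Figure D4:**
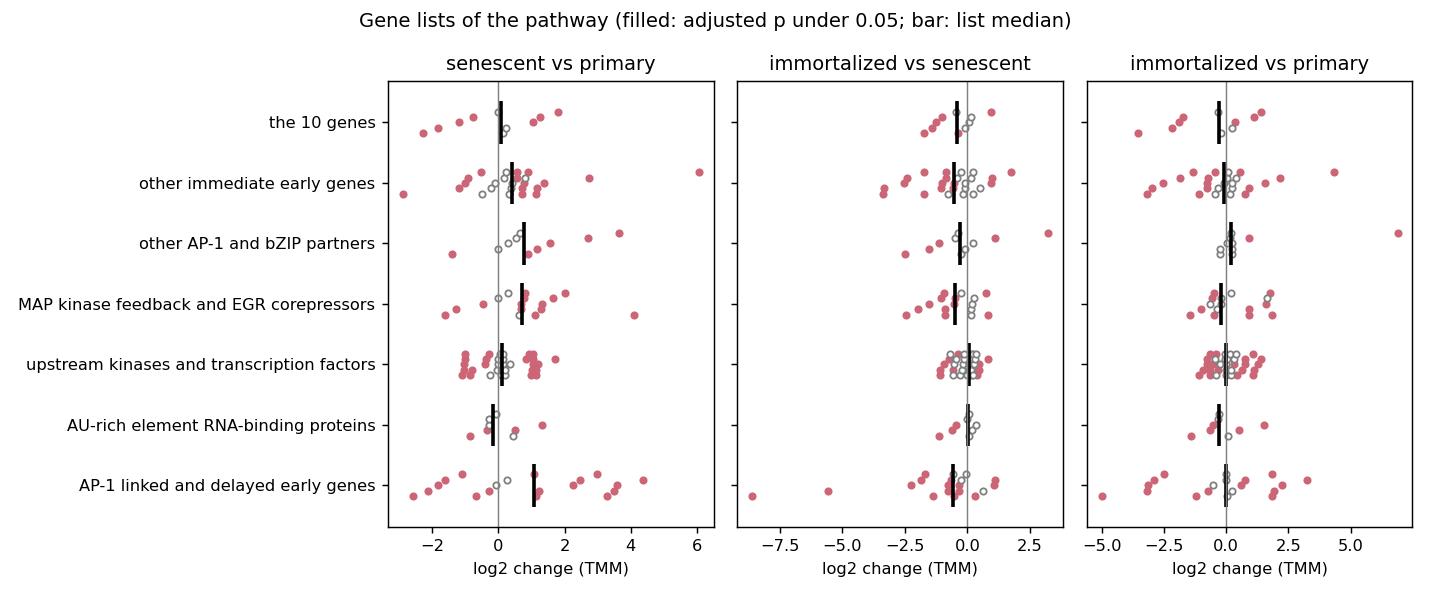
Log2 change after TMM scaling (x axis) of every tested gene of 7 lists (rows) in the 3 Simmental-like comparisons (panels; x axes differ). Filled points had an adjusted p under 0.05 and the black bar is the list's median, which lies at 0.73 for MAP kinase feedback genes in senescent against primary and at -0.51 in immortalized against senescent libraries.

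The kinases and factors that act before these genes were called in both directions, with medians near 0. Of 34 tested, 11 rose and 10 fell in senescent against primary libraries (median 0.11), 5 rose and 6 fell in immortalized against senescent ones (median 0.06), and 10 rose and 10 fell in immortalized against primary ones (median 0). EP300, the coactivator acetyltransferase, stood at 24.2, 73.8 and 49.4 CPM in primary libraries. It rose to 215 CPM in senescent (1.71 ± 0.275 against primary, edgeR adjusted p = 0.0011) and to 128 CPM in immortalized ones (1.12 ± 0.271 against primary, adjusted p = 0.00872). ELK3, an SRF partner that can repress, stood at 19.8, 72.2 and 50.6 CPM in primary libraries. It averaged 139 CPM in senescent (1.14 ± 0.312 against primary, edgeR adjusted p = 0.0143) and 138 CPM in immortalized ones (1.28 ± 0.313 against primary, adjusted p = 0.00938). BRAF (1.19 ± 0.236, edgeR adjusted p = 0.00324) and CREB1 (1.13 ± 0.182, adjusted p = 0.00106) also rose in senescent against primary libraries. In immortalized against senescent libraries CREB1 fell (-0.93 ± 0.18, edgeR adjusted p = 0.00457), as did the SRF partners MKL2 (-1.11 ± 0.257, adjusted p = 0.0111) and ELK4 (-1.08 ± 0.183, adjusted p = 0.00238). Against primary libraries the immortalized ones were higher in RPS6KA3, the ERK-activated kinase RSK2 (1.38 ± 0.343, edgeR adjusted p = 0.00988), and lower in MAPKAPK2, a kinase activated by p38 (-1.10 ± 0.0937, adjusted p = 2.45e-05).

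The next list holds proteins that bind the AU-rich elements of short-lived transcripts, and with them PABPC1, which binds poly(A) tails. Of 8 tested, 2 rose and 2 fell in senescent against primary libraries (median -0.17), 0 rose and 3 fell in immortalized against senescent ones (median 0.02), and 2 rose and 3 fell in immortalized against primary ones (median -0.30). ZFP36, the decay factor tristetraprolin and itself an early gene, stood at 48, 59.4 and 57.9 CPM in primary, 64.8, 61.9 and 63 CPM in senescent and 20.8, 27.1 and 28.9 CPM in immortalized libraries, and fell in immortalized against senescent ones (-1.14 ± 0.129, edgeR adjusted p = 0.000284) and against primary ones (-1.41 ± 0.13, adjusted p = 3.91e-05). Its relative ZFP36L1 rose to 266 CPM in senescent against 76.7 CPM in primary libraries (1.33 ± 0.0876, edgeR adjusted p = 7.9e-06) and was at 271 CPM in immortalized ones (1.52 ± 0.088 against primary, adjusted p = 2.62e-06). TIA1 rose in senescent against primary libraries (0.51 ± 0.133, edgeR adjusted p = 0.0105) and fell in immortalized against senescent ones (-0.45 ± 0.132, adjusted p = 0.0292). TIAL1 fell in senescent against primary libraries (-0.86 ± 0.117, edgeR adjusted p = 0.000432) and was lower in immortalized against primary ones (-0.52 ± 0.116, adjusted p = 0.00603; adjusted p = 0.0845 under total-count scaling). PABPC1 fell in immortalized against senescent (-0.60 ± 0.131, edgeR adjusted p = 0.00839) and primary libraries (-0.67 ± 0.131, adjusted p = 0.00298; adjusted p = 0.062 under total-count scaling). ELAVL1, a stabilizing protein, was lower by -0.34 ± 0.112 in senescent against primary libraries (edgeR adjusted p = 0.0289), but 0.14 under total-count scaling (adjusted p = 0.193).

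Genes linked to AP-1 and later phases of the response changed in both directions, with large single changes. Of 19 tested, 10 rose and 7 fell in senescent against primary libraries (median 1.08), 3 rose and 12 fell in immortalized against senescent ones (median -0.57), and 7 rose and 7 fell in immortalized against primary ones (median 0). The chemokine CXCL8 stood at 2.03, 1.64 and 1.69 CPM in primary, 53.1, 51.5 and 48.8 CPM in senescent and 1.1, 0.798 and 0.962 CPM in immortalized libraries. It rose in senescent against primary libraries (4.36 ± 0.194, edgeR adjusted p = 1.05e-06) and fell in immortalized against senescent ones (-5.58 ± 0.21, adjusted p = 2.04e-06), with no overlap. MMP9, a matrix protease, averaged 10.3 CPM in senescent against 0.611 CPM in primary libraries (3.59 ± 0.359, edgeR adjusted p = 8.56e-05). It had 1 count in immortalized and 609 in senescent libraries, 598-fold lower (95% interval from counting, 107 to 23700), and 37 counts in primary libraries (34.7-fold lower in immortalized ones, 5.86 to 1410).

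Ligands of the EGF receptor were among the genes that rose. HBEGF stood at 9.1 CPM in senescent against 0.673 CPM in primary libraries (3.29 ± 0.24, edgeR adjusted p = 1.47e-05) and at 7.82 CPM in immortalized ones (3.23 ± 0.241 against primary, adjusted p = 1.2e-05). AREG averaged 2.36 CPM in senescent and 0.145 CPM in primary libraries (3.5 ± 0.351, edgeR adjusted p = 8.09e-05). EREG stood at 0.988, 12 and 7.56 CPM in primary libraries, below its 50.2, 55.4 and 45.3 CPM in senescent ones. It fell to 9.35 CPM in immortalized against 50.3 CPM in senescent libraries (-2.26 ± 0.579, edgeR adjusted p = 0.0173). The cytokine LIF fell to 0.237 CPM in immortalized against 0.984 CPM in senescent libraries (-1.84 ± 0.323, edgeR adjusted p = 0.00281). HMOX1, a heme-degrading enzyme, was at 17.5 CPM in immortalized against 128 CPM in primary libraries (-3.20 ± 0.153, edgeR adjusted p = 1.03e-06), a fall with no overlap. TIMP1, a protease inhibitor, stood at 363, 408 and 460 CPM in immortalized against 4780, 1470 and 2050 CPM in primary libraries (-3.15 ± 0.481, edgeR adjusted p = 0.000814), with primary library 1 the highest.

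Genes with profiles most like those of FOS, JUN, EGR1 and FOSL1 over the 9 Simmental-like libraries were sought among 9626 genes outside all lists with a mean of at least 5 CPM, by the root mean square difference of centred log2(CPM + 0.5). Nearest to FOS were CARHSP1 (0.08), GATSL3 (0.1) and OXSM (0.11), beside a spread (SD) of FOS itself of 0.73. Nearest to JUN, with an SD of 0.75, were CSTF3 (0.07), CSTF2 (0.07) and MSX1 (0.1). EGR1, with an SD of 0.35, had FBXL14 (0.04), RUFY3 (0.05) and ATXN2L (0.06) nearest. FOSL1, with an SD of 0.83, had COL4A1 (0.08), PHF6 (0.09) and PROSER1 (0.09) nearest. COL4A1, a basement membrane collagen, averaged 138 CPM in primary, 400 CPM in senescent and 186 CPM in immortalized libraries. These are descriptions over 9 libraries in 3 clusters of stages.

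The Holstein-like libraries are given singly, because organ transcripts took more of the counts than fibroblast genes in 8 of the 9. Skeletal muscle markers (7 genes) took 16.8% to 16.9% of the counts in the 3 primary libraries, whose fibroblast genes took 0.08% to 0.0837%. Heart markers took 6.43% of senescent library 1, liver markers 14.7% and 15.5% of senescent libraries 2 and 3 and 15.4% of immortalized library 1, and kidney markers 0.941% of immortalized library 2, where fibroblast genes took 0.131%. In immortalized library 3 fibroblast genes took 6.66%, beside 0.525% for endothelial and 0.433% for blood and immune markers. The part of these tissues in the levels below was not tested.

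FOSL1 was nearly silent in the Holstein-like libraries. It had 0 counts in 6 of the 9, 1 count in senescent library 1 and immortalized library 1, and 7 counts (0.637 CPM) in immortalized library 2, against 27.2 to 153 CPM in the Simmental-like libraries. In immortalized library 3, the one with a fibroblast share like that of the Simmental-like cells, a count of 0 allows up to 0.215 CPM (3 counts). In the shallow primary libraries it allows 2.05 to 2.11 CPM. These limits and the intervals below cover counting error only.

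The 3 Holstein-like primary libraries shared 1 profile, with some early genes above every Simmental-like library and others far below. Between them, the chi-square a gene was only 1.2 to 1.22. NR4A1 stood at 266, 258 and 250 CPM there, against 5.04 to 24.8 CPM in the other Holstein-like and 4.24 to 51.7 CPM in the Simmental-like libraries. FOS stood at 192, 190 and 192 CPM, above the 33.2 to 137 CPM of the Simmental-like libraries, and ATF3 at 73.3, 78.4 and 89.9 CPM, above their 12.4 to 68.8 CPM. EGR1 stood at only 13, 13.6 and 18.3 CPM, IER2 at 7.54, 4.77 and 10.5 CPM, and JUNB at 28.8, 33.4 and 19 CPM, all below the Simmental-like ranges of 86.7 to 166, 76.9 to 149 and 69.6 to 365 CPM. The EGR1 to FOS ratio of counts was 0.0679, 0.0719 and 0.0949 in these libraries, beside 0.895 to 3.36 in the other Holstein-like ones.

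The other 6 Holstein-like libraries held most early genes at or below the Simmental-like range. Their summed level of the 10 genes was 215 to 680 CPM, against 934 to 1350 CPM in the Simmental-like libraries. Only EGR1 in senescent library 3 lay above that range, at 188 CPM (95% exact binomial interval 181 to 196). Senescent library 2, with a like share of liver markers, had EGR1 at 26.4 CPM (23.7 to 29.4). FOS in those libraries was at 56 and 29.5 CPM and JUNB at 60.2 and 30.1 CPM, again higher in senescent library 3.

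By these 10 genes, immortalized library 3 came nearest to the Simmental-like cells, with 7 inside their range and 3 below it (EGR1, DUSP1 and FOSL1). JUN stood there at 223 CPM, the highest among the Holstein-like libraries, with JUNB at 101 CPM and IER2 at 86.9 CPM. Immortalized library 1 had the lowest JUN, at 35.2 CPM, and ATF3, at 8.39 CPM, and 9 of the 10 genes lay below the Simmental-like range. DUSP1 stayed below that range in all 6 of these libraries, at 26.4 to 121 CPM against 149 to 307 CPM. The share of all genes inside or below the Simmental-like range is not given here. The counts above describe the 10 genes only.

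**Figure D5:**
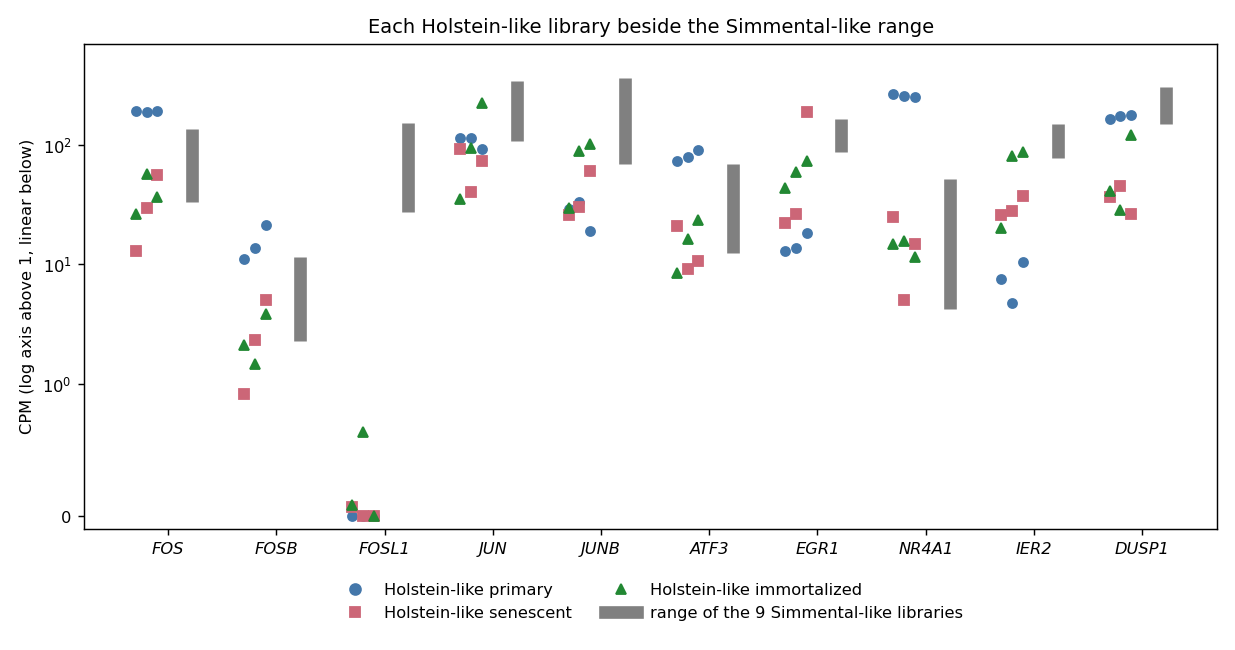
Level of each gene in CPM by column total (y axis, log scale above 1 and linear below) in each Holstein-like library (symbols, by labelled stage), left of the range of the 9 Simmental-like libraries (grey bars). The primary libraries lie above the grey bar for NR4A1, FOS and ATF3, and FOSL1 lies at 0 to 0.637 CPM in all 9.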

How the data were processed

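RNA was sequenced as single reads on a NextSeq from NEBNext Ultra II libraries, per the labels' protocols. The authors deposited a single table of expected counts, which its file name credits to salmon with merging to genes; build UMD3.1 stands in the submitters' processing notes. Not given in the sources used here were tool versions, annotation release and strand setting, so overlapping antisense transcripts cannot be told apart. Names of the Holstein-like columns end in Rerun.

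Counts were rounded (1.01% to 7.18% of a library's values were not whole). CPM used column totals. The 9 Simmental-like libraries were fitted together with edgeR 4.0.16 in R 4.3.3 (TMM, filterByExpr, robust quasi-likelihood F-tests), with Benjamini-Hochberg adjustment over all 13099 tested genes calling genes under 0.05. Each SE was taken as |log2 change| / sqrt(F). The code was tested on simulated data, in senescent against primary, immortalized against senescent and immortalized against primary libraries in turn. Of 100 genes changed 2-fold it recovered 35, 37 and 44, and of 100 changed 4-fold 89, 88 and 86. A gene that did not pass may therefore still have changed. The code also called 12, 3 and 6 unchanged genes, in the same order of comparisons. Only these 2-fold and 4-fold genes were changed among 13099, a far smaller share than was called in the data. Holstein-like libraries got exact binomial intervals and no test.

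Alternatives were other scalings (RLE, upper quartile, total count), no filter, a filter of 5 CPM in 3 libraries, DESeq2 1.42.0, limma-voom 3.58.1, 6 or 18 libraries in the fit, a replicate block, senescent libraries 1 and 2 summed, and leaving out each library. The 10 genes and all lists were chosen with earlier results of these data known. From every other list the text names, in each comparison, at most 4 called genes, those that changed most; some of these are not reported here. The lists matched 26 of 30, 12 of 14, 17 of 17, 34 of 35, 8 of 9 and 20 of 22 symbols, in the order of the report. Sequences were not used here.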

Additional observations from a re-analysis of the deposited data

Results flagged for a closer look

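For JUN and ATF3 the libraries of the 2 lines lay in opposite order under the same stage labels. This difference was not tested. The Holstein-like means below pool libraries with different organ transcripts and only describe the labelled groups. Skeletal muscle markers stood out in the primary libraries, heart markers in senescent library 1 and liver markers in senescent libraries 2 and 3. Among the immortalized libraries, liver markers stood out in library 1, kidney markers in library 2 and fibroblast genes in library 3. JUN stood at 327 to 340 CPM in senescent against 108 to 121 CPM in primary Simmental-like libraries (log2 ratio of mean CPM 1.54), and at 40 to 91.5 CPM in senescent against 92.7 to 115 CPM in primary Holstein-like libraries (-0.65). The nearest of these Holstein-like libraries, at 91.5 CPM in senescent library 1 and 92.7 CPM in primary library 3, had overlapping exact binomial intervals (86.6 to 96.6 and 77.5 to 110). ATF3 stood at 62.3 to 68.8 CPM in senescent against 12.4 to 14.6 CPM in primary Simmental-like libraries (2.28), and at 9.06 to 20.9 CPM in senescent against 73.3 to 89.9 CPM in primary Holstein-like libraries (-2.57). For ATF3 the same held in immortalized against primary libraries, with 41.2 to 45.6 CPM against 12.4 to 14.6 CPM in the Simmental-like line (1.72) and 8.39 to 23.4 CPM against 73.3 to 89.9 CPM in the Holstein-like line (-2.33).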

How the results depend on the processing

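Of the values of single members under the alternatives, 550 kept their direction and their side of the threshold, 31 lost a call, 12 gained one and 7 changed sign. These counts include FOSB in senescent against primary libraries, which had no direction to keep: it was at 0 and ran from -0.30 to 0.72. With all 18 libraries in one fit, which takes in the spread of the Holstein-like groups, 3, 1 and 4 of the 10 genes passed in senescent against primary, immortalized against senescent and immortalized against primary libraries (7, 6 and 7 with 9 libraries), and 2025, 416 and 1800 of all genes (7591, 4249 and 6607). With only the 6 libraries compared, 8600 of all genes passed in immortalized against senescent libraries. Leaving out each library gave 6 to 10, 4 to 7 and 6 to 8 of the 10 genes in the same order, and 5838 to 9042, 2888 to 7793 and 5191 to 8282 of all genes. The count of 7793 came without primary library 1. Total-count scaling moved the split of higher and lower calls to 5955 and 1840, 1505 and 2698, and 4580 and 2098 (3704 and 3887, 2146 and 2103, 3264 and 3343 with TMM). It also turned the sign of DUSP1 (0.12) and IER2 (0.01) in immortalized against primary libraries and of EGR1 (-0.03) and JUN (-0.11) in immortalized against senescent ones. None of these was past the threshold. Leaving out 1 library at a time, DUSP1 ran from -0.38 to 0.08 (without primary library 1) in immortalized against primary libraries, JUN turned to -0.01 without immortalized library 3 and IER2 ran from -0.05 (without primary library 2) to 0.38 in senescent against primary libraries. Under total-count scaling the median of the 10 genes turned to 0.06 in immortalized against primary libraries. Other list medians that turned were those of AU-rich element proteins (0.30 in senescent against primary, -0.15 in immortalized against senescent), upstream kinases and factors (-0.10 in immortalized against senescent), and, in immortalized against primary, other immediate early genes (0.20) and MAP kinase feedback genes (0.10). Deviations from the stage mean correlated across genes at -0.59 to 0.32 between libraries of the same replicate number. Between different numbers they correlated at -0.65 to 0.66. Deviations from a mean of 3 libraries depend on each other, so this check cannot decide whether the numbers pair samples. With the replicate block JUNB lost its call in senescent against primary libraries (-0.72, edgeR adjusted p = 0.0586), and no other call among the 10 genes changed. Depth limits the Holstein-like primary libraries most, where 3 counts are about 2.05 to 2.11 CPM.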
